A study of Homo sapiens with 60 samples.

Results

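The highest dose of an ethanol extract of Saengmaek-san, an herbal formula, was compared with its 2 lower doses in A549 cells, an established human lung adenocarcinoma line. The libraries were chosen by their titles: 3 at the high dose (500 µg/mL) against 6 pooled from the medium dose (100 µg/mL, n = 3) and the low dose (20 µg/mL, n = 3), so 9 of the 60 libraries of the series. All were collected after 24 h, and the other libraries hold the same cells under vehicle (n = 3) or 7 other plant or formula extracts. Dimethyl sulfoxide was the vehicle, given as 0.1% in the sample labels and 2% in the series description, a difference that no source at hand settles. The labels do not name the plants of the formula, which in the classical recipe are ginseng root, a Liriope or Ophiopogon tuber and Schisandra fruit. Whether replicates were cultured separately is not stated, and the p-values therefore speak only of how these libraries varied, which may be technical. A549 is 1 cell line, and bulk RNA cannot tell a change in every cell from a change in some of them.

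Of the genes that changed, 10 of 17 belong to the systems introduced here, with the NR4A receptors giving 1. These systems were chosen with earlier results of these data known, so that count is no measure of how far the changes gather in them. Cholesterol is made from acetyl-CoA by a chain of enzymes whose genes are switched on together by the transcription factor SREBP2 when sterols in the endoplasmic reticulum are low. INSIG1 holds SREBP2 back in that membrane and is itself one of its targets, while ABCA1, a target of the oxysterol receptor LXR, exports cholesterol. The aryl hydrocarbon receptor (AHR) binds flat aromatic compounds, including many from plants, pairs with ARNT and turns on CYP1 enzymes together with its own inhibitors AHRR and TIPARP. The NR4A receptors are orphan nuclear receptors, transcription factors made quickly and briefly after many stimuli.

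AHR with ARNT binds DNA at the xenobiotic response element, whose core is GCGTG. The 3 promoters shown are those of the AHR target genes among the changed genes that were found in the RefSeq promoter table (GRCh38.p14) and hold that core. Each runs over the 250 bases before the start that RefSeq annotates, read 5′ to 3′ on the gene's own strand. The core is in capitals on whichever strand it lies (CACGC is the core on the other strand). CYP1A1 lies at chr15:74725529-74725778 on the minus strand with the core 57 bases before the start. TIPARP lies at chr3:156674340-156674589 on the plus strand with cores 208 and 142 bases before the start. AHRR lies at chr5:321464-321713 on the plus strand with the core 30 bases before the start. These RefSeq starts differ from the ends of the GENCODE gene spans given below. The TIPARP and AHRR windows lie inside those spans (156673235 to 156706770 and 304176 to 438291), and the CYP1A1 window overlaps the end of its span.
CYP1A1: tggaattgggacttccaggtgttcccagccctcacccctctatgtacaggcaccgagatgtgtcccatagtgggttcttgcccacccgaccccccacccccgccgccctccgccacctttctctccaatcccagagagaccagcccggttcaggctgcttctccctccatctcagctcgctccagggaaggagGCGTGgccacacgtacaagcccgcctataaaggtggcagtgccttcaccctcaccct
TIPARP: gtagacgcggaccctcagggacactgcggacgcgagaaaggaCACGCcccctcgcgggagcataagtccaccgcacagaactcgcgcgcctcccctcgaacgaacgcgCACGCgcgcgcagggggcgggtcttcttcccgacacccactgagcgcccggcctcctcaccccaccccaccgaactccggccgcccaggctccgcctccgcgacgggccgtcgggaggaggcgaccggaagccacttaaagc
AHRR: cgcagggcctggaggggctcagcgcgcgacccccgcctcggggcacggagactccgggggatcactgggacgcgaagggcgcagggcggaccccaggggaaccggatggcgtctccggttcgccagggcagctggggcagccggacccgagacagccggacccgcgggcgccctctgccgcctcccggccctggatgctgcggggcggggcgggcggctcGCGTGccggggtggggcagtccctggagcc
The core is short and common: 31.9% of 27305 promoters of this length hold it on either strand. Of 11 AHR pathway genes 8 were in the promoter table and 4 of these held the core. Of 20 cholesterol synthesis genes 15 were in it and 12 held the AHR core, while 0 held TCACNCCAC, a form of the sterol regulatory element found in 0.875% of all promoters. Such matches describe letters in a window and are not evidence of binding.

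Total expected counts ran from 23192246 to 33363661 in the 9 Saengmaek-san libraries. Across the series the libraries fall into 2 classes by the level of the gene ENSG00000282955, which was at most 3.44 CPM (counts scaled to sequencing depth after TMM normalisation, a scaling that evens out RNA composition) in 38 libraries and at least 19.3 CPM in 22. The labels give no such class. High dose replicates 1 and 3, medium dose replicate 3 and low dose replicate 3 were of class 2, so class 2 made up 2 of 3 high dose libraries and 2 of 6 lower dose libraries. All 3 vehicle libraries were of class 2. Their library names in the labels begin with D1, while those of the Saengmaek-san libraries begin with 13. The labels do not say what this prefix means, and every title carries the same batch letter, D. A difference between vehicle and any dose therefore cannot be told apart from one between the prefixes. The share of CPM from the 13 mitochondrially encoded mRNAs was 13.1%, 5.26% and 10.2% in high dose replicates 1, 2 and 3. It was 6.52%, 4.77% and 12.2% at the medium dose and 5.2%, 6.16% and 9.46% at the low dose, highest in the class 2 libraries at every dose. In replicates 2 and 3 all doses are of 1 class, class 1 and class 2 respectively, so these replicates compare doses within a class. Markers of the epithelial carcinoma line were present, with 9 of 9 above 1 CPM and a summed level of 17100 to 20400 CPM at the high dose and 18100 to 20100 CPM at the lower doses. Leukocyte markers summed to 11.2 to 24.2 CPM at the high dose and 9.25 to 17.6 CPM at the lower doses, most of it CD68, and endothelial and fibroblast markers to 28 to 29.5 and 26.1 to 33 CPM, nearly all of it COL1A1. PTPRC, CD3E, PECAM1, VWF, CDH5, COL1A2 and DCN were too low to be tested.

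At the high dose, genes of cholesterol synthesis (FDFT1, SQLE, TM7SF2) and the SREBP2 regulator INSIG1 rose, as did the AHR targets CYP1A1, CYP1B1, AHRR and TIPARP, the retinoic acid-degrading enzyme CYP26B1 and UAP1L1. The cholesterol exporter ABCA1, the nuclear receptors NR4A3 and HNF4A, and the genes NPTX1, MMP24 and SLC45A4 fell. Apart from 1 antisense transcript, every change was small, from 1.24-fold to 1.93-fold upwards and from 0.866-fold to 0.62-fold downwards. In all 17 of 18396 genes tested passed an adjusted p under 0.05 (edgeR, percent called 0.0924), 11 higher (0.0598%) and 6 lower (0.0326%). At an unadjusted p under 0.05 there were 1725 genes (9.38%), and over all genes the median log2 fold change was 0.00. For 14 of the 17 called genes the 3 high dose libraries did not overlap the 6 lower dose libraries, beside 2.32% of all genes tested. The calls were made on these same libraries, so the lack of overlap follows in part from them and adds no separate support. CYP1B1, ABCA1 and the antisense transcript did overlap. These calls depend on a spread estimated over all 57 libraries of the fit: with only the 9 Saengmaek-san libraries 0 genes passed edgeR's test (adjusted p = 0.937 for each of the 17; 668 genes at an unadjusted p under 0.05). With library class as a covariate 43 genes passed (0.234%), 16 of the 17 among them.

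**Figure D1:**
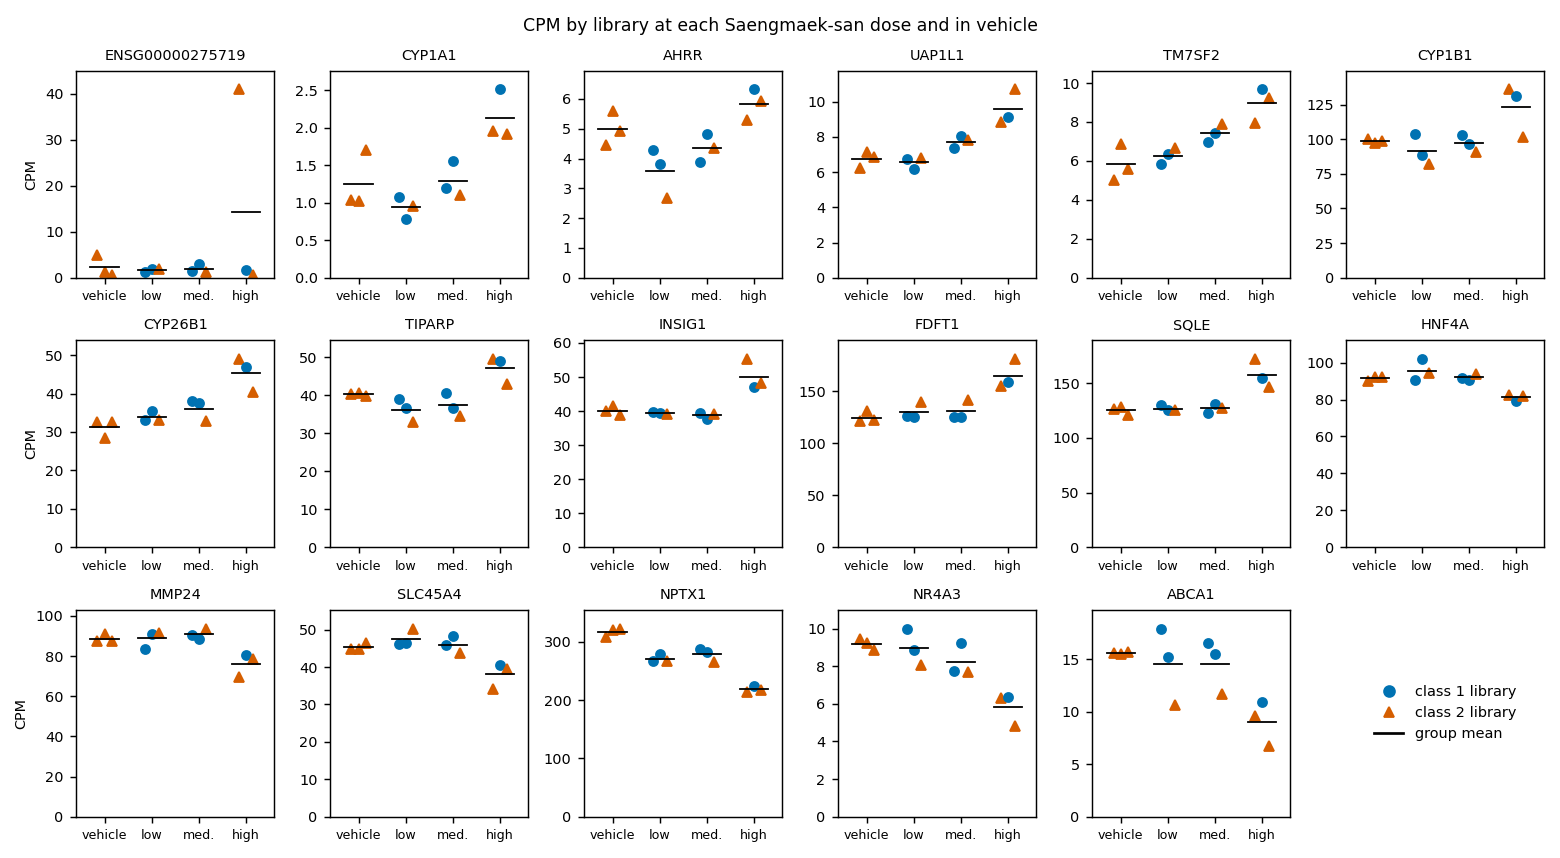
CPM of called genes in each Saengmaek-san and vehicle library, with vehicle and the low, medium and high dose along the horizontal axis, blue circles for class 1, orange triangles for class 2 and a line at each group mean. In SQLE the high dose libraries lie at 146 to 172 CPM, above the 123 to 131 CPM of the lower doses, and in NPTX1 they lie at 214 to 224 CPM, below 266 to 288 CPM.

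SQLE, squalene epoxidase, makes the first oxygen-requiring step towards sterols (ENSG00000104549, chromosome 8, 124998497 to 125022283, plus strand, GRCh38). Its level was 172, 155 and 146 CPM in high dose replicates 1, 2 and 3, against 123, 131 and 127 CPM at the medium dose and 130, 125 and 125 CPM at the low dose. All 3 high dose libraries stood above all 6 others, and the vehicle libraries (121 to 128 CPM) were at the level of the lower doses. The log2 fold change was 0.32 ± 0.04 (SE; edgeR adjusted p = 5.99e-05, the smallest of any gene tested), and the call held whichever of the 9 libraries was left out.

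FDFT1, squalene synthase, acts just before SQLE and commits the pathway to sterols (ENSG00000079459, chromosome 8, 11795573 to 11839309). It stood at 155, 159 and 181 CPM at the high dose, 125, 125 and 142 CPM at the medium dose and 126, 125 and 140 CPM at the low dose. The class 2 libraries were the highest within each of the lower doses, yet all high dose libraries lay above them. The log2 fold change was 0.34 ± 0.06 (edgeR adjusted p = 0.00245), and the gene was not called without high dose replicate 3.

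TM7SF2, a sterol reductase late in the pathway, was much lower in abundance (ENSG00000149809, chromosome 11, 65111845 to 65116384). It gave 7.97, 9.67 and 9.25 CPM at the high dose, 6.95, 7.42 and 7.9 CPM at the medium dose and 5.83, 6.34 and 6.65 CPM at the low dose. Every dose group lay above the one below it, although the gap between the highest medium and the lowest high dose library was small. The change of 0.40 ± 0.09 had an edgeR adjusted p of 0.0487 and was not called in 6 of 9 fits that left out 1 library, namely those without medium or low dose replicate 1, medium or low dose replicate 2, or high dose replicate 2 or 3.

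INSIG1, the sterol-sensing retention protein, gave 55.3, 47 and 48.1 CPM at the high dose (ENSG00000186480, chromosome 7, 155297776 to 155310235). The 6 lower dose libraries lay in the narrow range of 37.8 to 39.8 CPM and the vehicle libraries at 38.7 to 41.5 CPM. The groups did not overlap, and the log2 fold change was 0.36 ± 0.05 (edgeR adjusted p = 0.000308) with a call in every fit that left out 1 library.

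The rest of the synthesis pathway leaned the same way. Of 20 enzymes from acetyl-CoA to cholesterol, all tested, 3 rose and 0 fell, while 0.0598% of all genes rose and 0.0326% fell. A positive log2 fold change was seen in 19 and the median was 0.19, beside 49.7% positive and a median of 0.00 over all genes. For 6 enzymes all high dose libraries exceeded all lower dose libraries, against 1.27% of all genes tested. The exception in sign was PMVK, phosphomevalonate kinase, at -0.15 ± 0.19. Next to the threshold stood MVD, mevalonate diphosphate decarboxylase (0.35 ± 0.08, edgeR adjusted p = 0.0576), and DHCR7, which makes the last reduction to cholesterol (0.28 ± 0.06, 0.0663).

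HMGCS1, which makes HMG-CoA from acetyl-CoA units, was among the enzymes whose level differed between the library classes. It gave 224, 238 and 203 CPM at the high dose, 201, 190 and 166 CPM at the medium dose and 206, 187 and 161 CPM at the low dose. The class 2 replicate 3 was the lowest at every dose, so the high and lower doses overlapped although each high dose library exceeded the lower dose libraries of its own replicate number. The change was 0.26 ± 0.07 (edgeR adjusted p = 0.163), or 0.34 ± 0.04 with class as a covariate (adjusted p = 7.65e-07). With that covariate 11 of the 20 enzymes rose and 0 fell, with a median of 0.23. Over all genes 0.234% were called in either direction in that fit, and the median was 0.00. Among the enzymes added were HMGCS1, MVD (0.38), MSMO1 (0.35), IDI1 (0.30), CYP51A1 (0.28), DHCR7 (0.24) and LSS (0.21). Here the class and the dose are only partly separate, since the single class 1 high dose library is replicate 2.

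**Figure D2:**
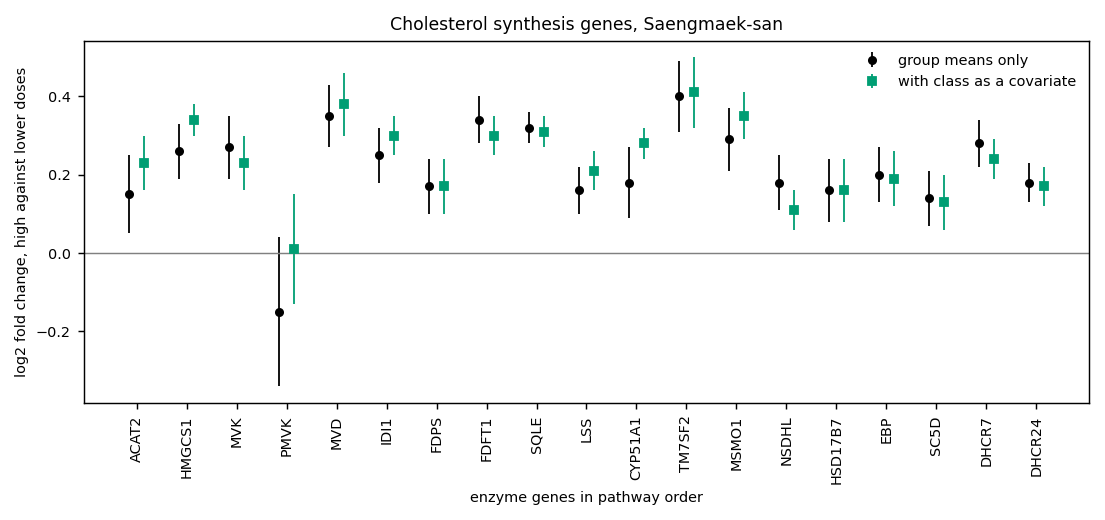
Log2 fold change of the high against the pooled lower doses for cholesterol synthesis enzymes in pathway order, with bars of 1 standard error, from the fit without (black) and with (green) library class as a covariate. In black every enzyme drawn lies above 0 except PMVK, at -0.15.

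Among genes for cholesterol uptake and SREBP2 control 1 of 10 rose (INSIG1), beside 0.0598% of all genes tested, and 0 fell. The median was 0.05, with 7 positive and 3 negative. For 4 of them all high dose libraries exceeded all lower dose libraries, against 1.27% of all genes tested. In replicates 2 and 3 both, 8 of 10 were higher (80%, against 26.5% of all genes), with medians of 0.11 and 0.06. In class 2 the number higher was 6 of 10. The sign of the 4 without overlap is fixed in such subsets. SREBF2, the gene of SREBP2 itself, gave 126 to 138 CPM at the high dose and 117 to 121 CPM at the lower doses, with no overlap between the groups (0.16 ± 0.05, edgeR adjusted p = 0.274). SCAP, INSIG2, STARD4, NPC1, MBTPS1 and MBTPS2, which carry, retain or cleave SREBP2 or move cholesterol, lay between -0.11 and 0.06. Among 13 genes of fatty acid synthesis and desaturation 0 rose and 0 fell (median -0.01). FADS2, the delta-6 desaturase, was at 553 to 593 CPM against 495 to 539 CPM (0.17 ± 0.04, adjusted p = 0.0663). With class as a covariate it rose (0.15, adjusted p = 0.0356) and SREBF1, the fatty acid-side SREBP gene, fell by 0.32 (adjusted p = 0.00297).

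Of 7 LXR targets and efflux genes 1 fell, beside 0.0326% of all genes tested, 0 rose and the median was -0.08. For 2 of the 7, ABCA1 not among them, all high dose libraries lay below all lower dose libraries, against 1.04% of all genes tested. The one that fell was ABCA1, which loads cholesterol onto apolipoproteins (ENSG00000165029, chromosome 9, 104781002 to 104928237). It gave 9.56, 10.9 and 6.71 CPM at the high dose, 16.5, 15.5 and 11.7 CPM at the medium dose and 17.9, 15.2 and 10.6 CPM at the low dose. Replicate 3 was the lowest at each dose, and low dose replicate 3 fell just below high dose replicate 2, so the groups overlapped by these libraries. Within each replicate number the high dose was the lowest. The change was -0.69 ± 0.15 (edgeR adjusted p = 0.0487), called in 3 of 9 fits that left out 1 library and lost in those without medium or low dose replicate 1 or 2, or high dose replicate 1 or 3. With class as a covariate it was -0.55 (adjusted p = 0.00194).

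Targets of AHR rose, from very different levels. TIPARP, an ADP-ribosyltransferase that inhibits AHR (ENSG00000163659, chromosome 3, 156673235 to 156706770), had the steadiest change of them. It gave 49.6, 49.1 and 43 CPM at the high dose, 40.6, 36.8 and 34.7 CPM at the medium dose and 39, 36.6 and 32.9 CPM at the low dose. All high dose libraries lay above the lower doses, and vehicle lay at 39.8 to 40.7 CPM. The log2 fold change was 0.36 ± 0.05 (edgeR adjusted p = 0.000419) and held whichever library was left out.

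CYP1A1, the classical AHR-induced monooxygenase (ENSG00000140465, chromosome 15, 74719542 to 74725610, minus strand), was scarce in these cells. Its rounded counts were 43, 72 and 45 at the high dose, 35, 46 and 24 at the medium dose and 37, 22 and 21 at the low dose. In CPM these were 1.96, 2.51 and 1.91, then 1.2, 1.55 and 1.1, then 1.08, 0.779 and 0.95, with no overlap between the high and the lower doses. A single vehicle library reached 1.7 CPM and the others 1.03 and 1.02. The log2 fold change was 0.95 ± 0.19 (edgeR adjusted p = 0.0209), and the call was lost without medium dose replicate 1, high dose replicate 2 or 3, or low dose replicate 2.

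CYP1B1, the related monooxygenase that acts on estrogens and polycyclic hydrocarbons, was abundant (ENSG00000138061, chromosome 2, 38066973 to 38109902). It gave 136, 131 and 102 CPM at the high dose, 103, 96.9 and 91 CPM at the medium dose and 104, 88.5 and 82 CPM at the low dose. High dose replicate 3 lay within the range of the lower doses, while replicates 1 and 2 were well above it. The change was 0.38 ± 0.07 (edgeR adjusted p = 0.00425), not called without high dose replicate 1.

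AHRR, the repressor that competes with AHR for ARNT (ENSG00000063438, chromosome 5, 304176 to 438291), gave 5.28, 6.32 and 5.94 CPM at the high dose. Its medium dose libraries stood at 3.89, 4.82 and 4.36 CPM and its low dose libraries at 4.28, 3.83 and 2.67 CPM. Those groups did not overlap, but the vehicle libraries, at 4.47 to 5.61 CPM, overlapped the high dose. The log2 fold change was 0.56 ± 0.11 (edgeR adjusted p = 0.0209), lost without medium dose replicate 1 or high dose replicate 3.

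In the AHR pathway as a whole 4 of 10 genes tested rose, beside 0.0598% of all genes tested, 0 fell and the median was 0.28. The receptor AHR was at -0.11 (edgeR adjusted p = 0.711) and its partner ARNT at 0.09 (0.678). NQO1, a quinone reductase also under NRF2, was at -0.05 and ALDH3A1, an aldehyde dehydrogenase, at 0.20 (adjusted p = 0.395). UGT1A6, a glucuronosyltransferase that shares exons with its UGT1A relatives and is uncertain for that reason, was at 0.43 (adjusted p = 0.546). CYP1A2 was too low to be tested.

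The NR4A receptors were lower at the high dose, and 1 of the 3 passed, while 0.0326% of all genes tested fell. NR4A3 (ENSG00000119508, chromosome 9, 99821855 to 99866891) gave 6.29, 6.36 and 4.84 CPM at the high dose, 7.74, 9.21 and 7.71 CPM at the medium dose and 10, 8.86 and 8.05 CPM at the low dose. Its change was -0.56 ± 0.10 (edgeR adjusted p = 0.00629), not called without high dose replicate 3. NR4A1 gave 27.4, 23.9 and 27.7 CPM at the high dose and 30.5 to 38.8 CPM at the lower doses (-0.35 ± 0.09, adjusted p = 0.124). NR4A2 gave 3.69 to 3.96 CPM and 4.44 to 5.74 CPM (-0.38 ± 0.15, adjusted p = 0.437). So in 3 of 3 receptors every high dose library lay below every lower dose library, against 1.04% of all genes tested. With class as a covariate NR4A1 also fell (-0.43, adjusted p = 5.72e-05). The immediate early genes, which answer many of the same stimuli, had 0 of 16 tested past the threshold and a median of 0.11. FOSL1, a subunit of the AP-1 factor, was at 22 to 38 CPM against 17.1 to 26.9 CPM (0.64 ± 0.18, adjusted p = 0.227) and rose with class as a covariate (0.41, adjusted p = 0.00267). Its vehicle libraries, at 30.2 to 37.3 CPM, lay within the high dose range and above the lower doses.

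Among the other genes that rose was CYP26B1, which degrades retinoic acid (ENSG00000003137, chromosome 2, 72129238 to 72148038). It gave 49, 47 and 40.4 CPM at the high dose, 38, 37.5 and 32.8 CPM at the medium dose and 33.2, 35.5 and 33.2 CPM at the low dose. No lower dose library reached the high dose range, and vehicle lay at 28.5 to 32.6 CPM. The change was 0.38 ± 0.07 (edgeR adjusted p = 0.00425, not called without high dose replicate 1), and it was the 1 gene called among 12 of the retinoic acid pathway (median 0.06).

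UAP1L1, a relative of the enzyme that makes UDP-N-acetylglucosamine (ENSG00000197355, chromosome 9, 137077501 to 137084539), rose at the high dose. It gave 8.84, 9.15 and 10.7 CPM at the high dose, 7.36, 8.03 and 7.8 CPM at the medium dose and 6.74, 6.2 and 6.78 CPM at the low dose. None of the 3 dose ranges overlapped. The change was 0.42 ± 0.07 (edgeR adjusted p = 0.00425, not called without high dose replicate 3), and the other 7 genes of the hexosamine list did not pass (0 fell, median of the 8 genes -0.08).

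NPTX1, a secreted pentraxin best known from neurons (ENSG00000171246, chromosome 17, 80467148 to 80477843), gave 214, 224 and 218 CPM at the high dose. It was 288, 283 and 266 CPM at the medium dose, 267, 279 and 267 CPM at the low dose and 308 to 323 CPM in vehicle. The high dose replicates were close together and below every other library, with a change of -0.33 ± 0.06 (edgeR adjusted p = 0.00629) that was not called without high dose replicate 1 or 3.

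SLC45A4, a solute carrier (ENSG00000022567, chromosome 8, 141207166 to 141308305), gave 34.2, 40.5 and 39.4 CPM at the high dose and 43.8 to 50.3 CPM at the lower doses. It fell by 0.30 on the log2 scale (SE 0.06, edgeR adjusted p = 0.0209) and was not called without high dose replicate 1 or 3 or medium dose replicate 1 or 2. HNF4A, a transcription factor of liver and gut epithelium (ENSG00000101076, chromosome 20, 44355700 to 44434596), gave 82.5, 79.4 and 82 CPM at the high dose and 90.5 to 102 CPM at the lower doses (-0.21 ± 0.05, adjusted p = 0.0487). MMP24, a membrane-bound metalloproteinase (ENSG00000125966, chromosome 20, 35226654 to 35277000), gave 69.7, 80.4 and 78.5 CPM and 83.7 to 93.7 CPM (-0.24 ± 0.05, adjusted p = 0.0487). None of these 3 overlapped between the high and the lower doses. HNF4A and MMP24 were each called in 2 of 9 fits that left out 1 library: HNF4A was lost without any high or medium dose library or low dose replicate 2, and MMP24 without any medium dose library, high dose replicate 1 or 3, or low dose replicate 2 or 3.

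The largest fold change, in the antisense gene ENSG00000275719, rested on 1 library. This gene lies on chromosome 19 at 46787815 to 46789043 on the plus strand, opposite the 5′ start of SLC1A5 on the minus strand (46774883 to 46788594), a glutamine transporter, and no source at hand says whether counting used strand. It gave 40.9 CPM in high dose replicate 1 but 1.71 and 0.509 CPM in high dose replicates 2 and 3, and 1.14 to 2.87 CPM at the lower doses. Its fitted change was 3.05 ± 0.64 (edgeR adjusted p = 0.0394), and without high dose replicate 1 it was -0.59. SLC1A5 itself was at -0.05 (adjusted p = 0.778).

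No gene passed in the other lists. Detoxification and stress genes lay near the level of all genes, with medians of -0.05 for 14 NRF2 targets, 0.00 for 13 genes of the integrated stress response, 0.01 for 10 chaperones of the endoplasmic reticulum, 0.04 for 11 cytosolic heat shock genes and -0.03 for 12 p53 targets. HMOX1, heme oxygenase, was at 171 to 207 CPM against 151 to 171 CPM (0.22 ± 0.06, edgeR adjusted p = 0.123), and GDF15, a stress cytokine, at 20.5 to 24.5 against 16.7 to 20 CPM (0.33 ± 0.09, 0.227). Proliferation genes gave medians of 0.01 for 16 genes of mitosis and -0.03 for 14 of DNA replication. Metabolic lists gave -0.06 for 14 genes of glycolysis and hypoxia and 0.08 for 9 PPAR targets. The median was 0.07 for 12 NF-kB targets and chemokines, -0.01 for 7 glucocorticoid targets and -0.01 for 11 mucin, keratin and fibrinogen genes. FGA, the fibrinogen alpha chain, was at 169 to 208 CPM against 209 to 238 CPM (-0.23 ± 0.06, adjusted p = 0.123). Its vehicle libraries, at 191 to 199 CPM, lay within the high dose range and below the lower doses. Of 9 xenobiotic receptor targets 3 could be tested (median -0.24), with CYP3A4, CYP2B6, CYP2C8, ABCB1 and NR1I2 too low. The median was -0.01 for the 9 epithelial line markers, 0.08 for 3 leukocyte markers and -0.01 for 2 endothelial and fibroblast markers. All 13 mitochondrially encoded mRNAs had a positive change, with a median of 0.37 that was 0.03 with class as a covariate, and 0 of them passed the test in either fit.

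The lower doses could then be set apart. Between the high and the medium dose 5 genes passed (0.0272%): SQLE, INSIG1, TIPARP and FDFT1 were higher (0.0217%), by 0.31 to 0.37, and NPTX1 was lower (0.00544%), at -0.35 (edgeR adjusted p from 0.00218 to 0.0355 over the 5). Leaving out high dose replicate 1 ended all 5 calls. Between the high and the low dose 13 genes passed (0.0707%), 12 of them among the 17 named above, with SQLE (0.32), INSIG1 (0.34), TIPARP (0.38) and FDFT1 (0.34) at much the same size. Between the medium and the low dose edgeR called 0 genes (378 at an unadjusted p under 0.05, 2.05%), and DESeq2 called 1, ENSG00000256861. With the replicate number as a block 1 gene passed there, TVP23C-CDRT4, a readthrough of neighbouring genes whose reads can be split between them (-1.54, adjusted p = 0.0413).

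SQLE and FDFT1 (0.00 each), INSIG1 (-0.03) and TIPARP (0.05) differed little between the medium and the low dose. In contrast, UAP1L1 (0.23 ± 0.09), TM7SF2 (0.24 ± 0.10), AHRR (0.26 ± 0.14) and CYP1A1 (0.46 ± 0.24) were already higher at the medium than at the low dose in these libraries, and each had an edgeR adjusted p of 1. A straight line over log2 dose in the 9 libraries alone called 0 genes (635 at an unadjusted p under 0.05).

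**Figure D3:**
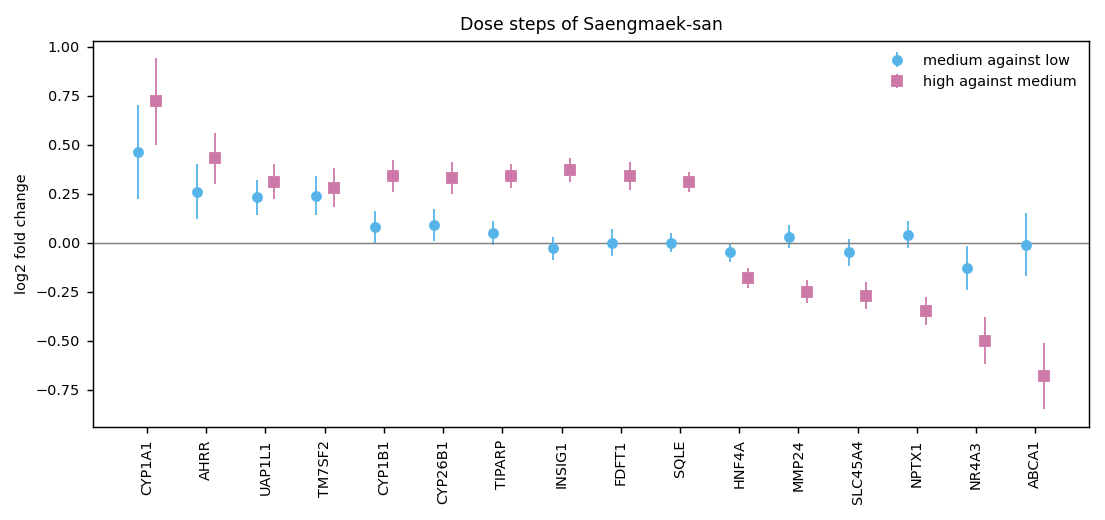
Log2 fold change of the medium against the low dose and of the high against the medium dose for the 16 called genes other than ENSG00000275719, with bars of 1 standard error. For SQLE, FDFT1 and INSIG1 the first step lies at or near 0 and the second at 0.31 to 0.37, while for UAP1L1 both steps are positive (0.23 and 0.31).

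The size of the change was then read within replicates of the same library class. In class 1 the high dose replicate 2 was set against 4 lower dose libraries, and in class 2 high dose replicates 1 and 3 against 2. For the 14 genes whose high and lower dose libraries do not overlap, the sign in any such subset is fixed, so only the sizes are informative. Of the 3 others, CYP1B1 and ABCA1 kept their sign in both classes and the antisense gene did not in class 1. SQLE gave log2 ratios of 0.29 in class 1 and 0.33 in class 2, INSIG1 0.27 and 0.40, and FDFT1 0.35 and 0.25. TIPARP gave 0.36 and 0.45, CYP1B1 0.41 and 0.46, and CYP1A1 1.12 and 0.92. NR4A3 gave -0.49 and -0.50, NPTX1 -0.32 and -0.30, and ABCA1 -0.58 and -0.45. AHRR gave 0.59 and 0.68, UAP1L1 0.37 and 0.42, CYP26B1 0.38 and 0.44, and HNF4A -0.24 and -0.20. TM7SF2 was larger in class 1 (0.54) than in class 2 (0.24). MMP24 and SLC45A4 were smaller in class 1 (-0.14 and -0.20) than in class 2 (-0.32 and -0.36). ENSG00000275719 was at -0.07 in class 1, and at -0.45 and -1.62 in replicates 2 and 3.

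The cholesterol synthesis list was higher at the high dose in both classes. For 6 of the 20 enzymes the sign is again fixed by groups that do not overlap. In class 1, 20 of 20 enzymes were higher at the high dose with a median log2 ratio of 0.28 (48.3% of all genes with a finite ratio were higher), and in class 2, 19 of 20 with a median of 0.20 (49.9% of such genes). In replicates 2 and 3 both, 19 of 20 were higher, or 95%, against 26.5% of all genes. Replicate 1, where the high dose library is of class 2 and the others of class 1, gave smaller ratios for HMGCS1 (0.14 against 0.34 and 0.31 in replicates 2 and 3) and MSMO1 (0.06 against 0.41 and 0.37) and a negative one for LSS (-0.11 against 0.30 and 0.27). The AHR pathway had 7 of 10 genes higher in class 1 and 8 of 10 in class 2. Restricted to replicates 2 and 3, with class as a covariate, edgeR called 31 genes, 10 of them among the 17. In fits within 1 class the spread is taken largely from the other groups. Class 1 holds 1 high dose library, and class 2 holds 1 library at each of the medium and low doses.

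**Figure D4:**
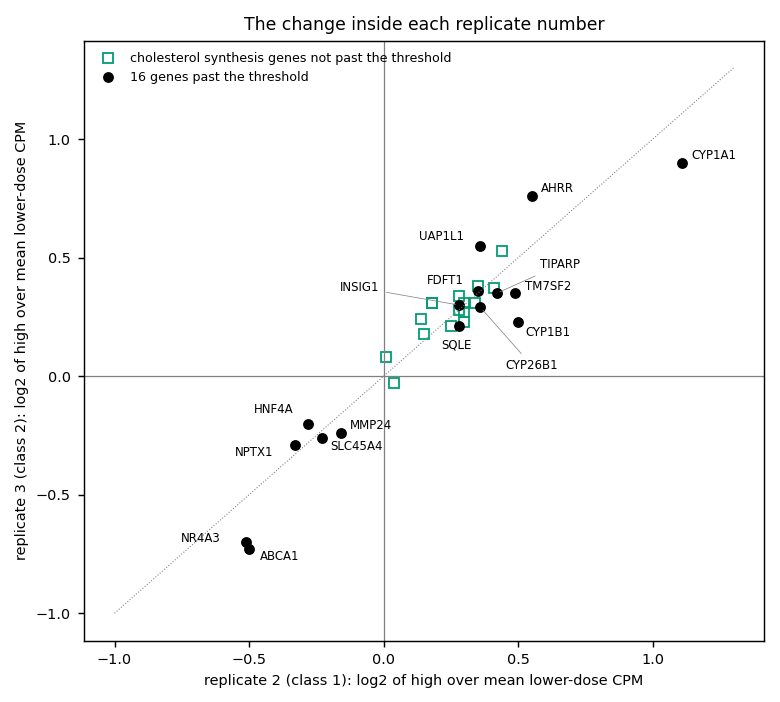
Log2 ratio of the high dose to the mean of the lower doses in replicate 2 (all class 1, horizontal) and replicate 3 (all class 2, vertical), for 16 called genes (black) and other cholesterol synthesis enzymes (open squares), with ENSG00000275719 left out of the plot and a dotted line where both are equal. Every enzyme drawn lies above 0 on both axes except PMVK, and the 6 genes that fell lie in the lower left.

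To see whether the response differed between extracts, the same contrast was taken in Guibi-tang, another formula, and Saposhnikoviae Radix, a root, both given at the same doses with 3 libraries each and sharing no library with Saengmaek-san. Their high doses changed 632 genes (3.44%) and 17 genes (0.0924%). These 4 AHR targets rose with all 3 extracts. CYP1A1 rose by 2.04 with Guibi-tang and 1.22 with Saposhnikoviae Radix, CYP1B1 by 0.93 and 0.57, TIPARP by 0.75 and 0.58, and AHRR by 0.76 and 0.51. With Saengmaek-san the change was smaller than with Guibi-tang for CYP1A1 (difference -1.09 ± 0.25, edgeR adjusted p = 0.0274), CYP1B1 (-0.55 ± 0.10, 0.00133) and TIPARP (-0.39 ± 0.08, 0.0053). For AHRR the difference of -0.20 ± 0.16 did not pass (adjusted p = 0.789).

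Cholesterol genes also differed between the extracts. INSIG1 fell with both other extracts, by 0.33 and by 0.34, and the difference to Saengmaek-san was 0.69 ± 0.08 against Guibi-tang and 0.70 ± 0.08 against Saposhnikoviae Radix (edgeR adjusted p = 1.67e-07 and 1.57e-07). SQLE was at -0.03 and -0.08 with the others, with differences of 0.34 ± 0.06 and 0.40 ± 0.06 (adjusted p = 0.00124 and 0.000305). FDFT1 was at 0.00 and -0.18, with differences of 0.34 ± 0.08 and 0.52 ± 0.08 (adjusted p = 0.0337 and 0.000442). The 20 synthesis enzymes had 0 rises and 2 falls with Guibi-tang (median -0.04) and 0 rises and 1 fall with Saposhnikoviae Radix (median -0.18). The change with Saengmaek-san was the higher in 6 enzymes against Guibi-tang and in 5 against Saposhnikoviae Radix, and the lower in 0. Over all genes 101 differed from Guibi-tang (0.549%), 80 of them higher with Saengmaek-san (0.435%), and 8 from Saposhnikoviae Radix (0.0435%), all higher. Those 8 were SQLE, DHCR7, HMGCS1, SCD, FDFT1, FADS2, IDI1 and INSIG1, all genes of sterol or unsaturated fatty acid synthesis or its control (SCD was named after its value was seen).

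Of the 17 Saengmaek-san genes 12 were called with Guibi-tang, or 70.6%, beside 3.44% of all genes tested. These 12 are 1.9% of the Guibi-tang genes, and 11 had the same direction. With Saposhnikoviae Radix 6 of 17 were called, 35.3% of each list, beside 0.0924% of all genes tested, and 5 had the same direction. INSIG1 was the gene that went the other way in both. NR4A3 (-0.94), HNF4A (-0.37), SLC45A4 (-0.51) and NPTX1 (-0.64) fell with Guibi-tang by more than with Saengmaek-san, but these 4 differences did not pass (edgeR adjusted p from 0.105 to 0.401). NR4A1 fell with Guibi-tang (-0.94) and its difference to Saengmaek-san passed (0.59, adjusted p = 0.013). In Guibi-tang all doses of a replicate number were of 1 class. The library names of Saengmaek-san and Guibi-tang begin with 13 and those of Saposhnikoviae Radix with 12, a prefix that the labels do not explain. A difference between Saengmaek-san and Saposhnikoviae Radix therefore cannot be told apart from one between the prefixes.

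**Figure D5:**
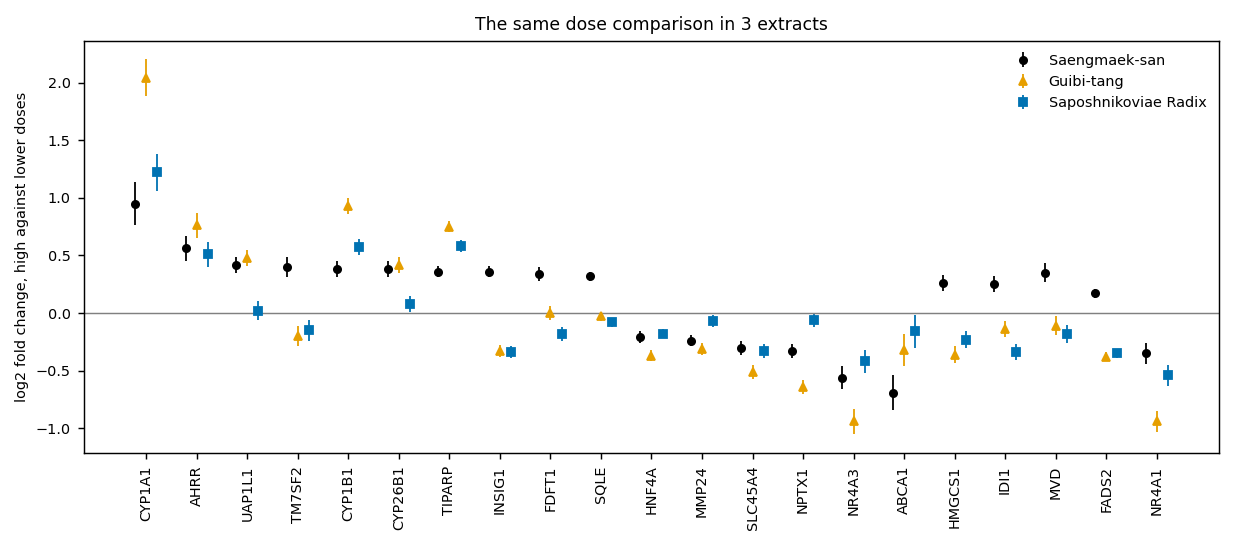
Log2 fold change of the high against the pooled lower doses for 16 called genes and HMGCS1, IDI1, MVD, FADS2 and NR4A1 in Saengmaek-san, Guibi-tang and Saposhnikoviae Radix, with bars of 1 standard error. The points of INSIG1 lie at 0.36, -0.33 and -0.34 and those of CYP1A1 at 0.95, 2.04 and 1.22.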

How the data were processed

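The deposited table holds RSEM expected counts per Ensembl gene for 60675 genes and 60 libraries. Per the submitters' processing notes, reads were processed with RSEM 1.3.3 and STAR 2.7.3a, besides Trim Galore 0.6.5 and FastQC 0.11.9, on GRCh38/hg38. The annotation release, and whether counting used the strand that the directional library kit keeps, are not stated in these sources. Of the values 9.95% carry decimals, and all were rounded to whole counts here. Symbols come from the gene name table (56558 IDs) and GENCODE 29 (a further 497), and positions from GENCODE 29. Promoter sequences come from RefSeq (GRCh38.p14).

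Groups follow the titles. The fit used 57 libraries in 22 groups, leaving out Okbyeongpung-san with 1 library per dose. TMM normalisation and filterByExpr left 18396 genes, tested two-sided with the quasi-likelihood F-test of edgeR 4.0.16 (R 4.3.3, limma 3.58.1; 35 residual degrees of freedom). The contrast was the high dose mean minus the average of the medium and low dose means. Benjamini-Hochberg adjustment ran over all 18396 genes for each of 8 contrasts separately, with a threshold of 0.05. An error beside a log2 fold change is a standard error, taken as the size of the change over the root of the F statistic. Log2 ratios within a class or replicate are log2 ratios of mean CPM with no prior count and no test. The library classes were split at 10 CPM of ENSG00000282955, a cut set on these data. Scripts were tested on simulated data.

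Text names every gene called, all members of the lists on cholesterol synthesis, cholesterol uptake and SREBP2 control, the AHR pathway and the NR4A receptors, by values or by range, apart from some members that are not reported here, and of each other list the called members or some of the 2 with the smallest p. The members and lists were chosen with earlier results of these data known. Alternatives were DESeq2 size factors, no filter, the DESeq2 1.42.0 Wald test, a replicate block, only the libraries compared, a class covariate, each class alone, a slope on log2 dose, and each library left out in turn. Added after seeing the data were replicates 2 and 3 alone, and the class covariate without high dose replicate 1. Pairing was checked by correlating deviations of log2 CPM (prior count 2) from group means across genes. For the medium and low doses same-numbered libraries gave 0.251, 0.273 and 0.507, so the blocked value is given beside that comparison. This pairing comes from the data, since the labels do not say what a shared number means. Across numbers, replicates 1 and 2 of these doses, all of class 1, gave 0.217 and 0.254. A shared number could therefore not be told apart from a shared class.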

Additional observations from a re-analysis of the deposited data

Results flagged for a closer look

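The change from the lower doses to the high dose differed between Saengmaek-san and Guibi-tang, by a test of the difference in edgeR, in 16 of the genes named here. Each value is the log2 fold change with Saengmaek-san minus that with the other extract. It was higher with Saengmaek-san in genes of cholesterol synthesis and its control: INSIG1 0.69, HMGCS1 0.62, TM7SF2 0.60, MVD 0.47, LSS 0.38, SQLE 0.34 and FDFT1 0.34. It was also higher in the desaturase FADS2 (0.55), the receptor NR4A1 (0.59), the chaperone CALR (0.36), the pyruvate kinase PKM (0.45) and the fibrinogen chain FGG (0.43). It was lower in the AHR targets CYP1A1 (-1.09), CYP1B1 (-0.55) and TIPARP (-0.39) and in heme oxygenase, HMOX1 (-0.38). LSS, HMGCS1, FADS2, NR4A1, FGG and PKM fell with Guibi-tang, and none of these 6 was called with Saengmaek-san in the fit without a class covariate. With that covariate HMGCS1, FADS2 and LSS rose and NR4A1 fell with Saengmaek-san.

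Against Saposhnikoviae Radix the change differed in 7 named genes, all higher with Saengmaek-san: INSIG1 0.70, IDI1 0.58, FDFT1 0.52, FADS2 0.52, HMGCS1 0.49, DHCR7 0.46 and SQLE 0.40. INSIG1 (-0.34), FADS2 (-0.35) and IDI1 (-0.34) fell with Saposhnikoviae Radix. IDI1, FADS2, HMGCS1 and DHCR7 were not called with Saengmaek-san in the fit without a class covariate, and each rose with it.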

How the results depend on the processing

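The number of genes called depended on the processing. Of the values of the 17 called genes 4 reversed, all in ENSG00000275719: -0.04 within class 1, -0.79 in replicates 2 and 3, -0.58 with the class covariate without high dose replicate 1, and -0.59 without that library. With single libraries left out its value ran from -0.59 to 3.61. With no filter on low counts the count was 490 (274 higher, 216 lower) for the high against the lower doses, 192 against the medium and 447 against the low dose, 111 for medium against low, 304 for the difference to Guibi-tang and 139 for that to Saposhnikoviae Radix. The DESeq2 Wald test gave 47 (24 higher), 9, 50, 1, 165 and 16 in that order. With only the libraries compared the counts were 0, 0, 0, 0, 10 and 2. A class covariate gave 43, 19, 61, 0, 192 and 20. The higher share of the calls against the lower doses was 11 of 17, and 26 of 43 with that covariate.

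The replicate block gave 0 calls for the high against the lower doses (1867 at an unadjusted p under 0.05; edgeR adjusted p from 0.172 to 0.459 for the 17 genes), 1 against the medium dose (EIF3CL, a near-copy of EIF3C), 0 against the low dose, 1 for medium against low and 152 for the difference to Guibi-tang. For the high dose, same-numbered medium and low dose libraries correlated at 0.0283 and 0.0224 in replicate 1, so the numbers were not taken as pairs there. In replicate 2 the values were 0.297 and 0.246, and in replicate 3 they were 0.325 and 0.339. Replicate 1 is also the number whose high dose library differs in class from the others, so number and class cannot be told apart. In 8 of 9 checks the best match had the same number. Within class 1 the counts were 0, 0, 0 and, against Guibi-tang, 50. Within class 2 they were 232, 185 against the low dose, 8 for medium against low (5 are pseudogenes) and 27 against Guibi-tang. The lower dose libraries of Saposhnikoviae Radix used here were all of class 1, so that difference was not run within class 2. A slope on log2 dose gave 0. Replicates 2 and 3 alone gave 31, 27 against the low dose and 21 against Saposhnikoviae Radix, and the class covariate without high dose replicate 1 gave 50.

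Leaving out 1 library gave 9 to 202 genes for the high against the lower doses, 0 to 6 against the medium dose, 9 to 48 against the low dose, 0 for medium against low, 53 to 170 for the difference to Guibi-tang and 6 to 17 for that to Saposhnikoviae Radix. Against the lower doses the count was 202 without high dose replicate 2, the class 1 library, and 39 without low dose replicate 3. It was 9 without medium dose replicate 1 or high dose replicate 3, and 11 without medium or low dose replicate 2. Against the medium dose it was 0 without high dose replicate 1, 1 to 3 without any medium dose library, and 2 without high dose replicate 2. Against the low dose it was 48 without high dose replicate 2, 31 without low dose replicate 1 and 24 without low dose replicate 2. The difference to Guibi-tang counted 170 without Saengmaek-san high dose replicate 2, and 67 and 53 without Guibi-tang high dose replicates 1 and 2. That to Saposhnikoviae Radix counted 17 without Saengmaek-san high dose replicate 1. The cause of these moves was not tested. At about 1 to 3 CPM, as in CYP1A1, depth limits each library to 21 to 72 counts.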
